A study of Mus musculus with 26 samples.

Results

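The 10 genes described here encode the MHC class II presentation machinery of the mouse: the class II chains H2-Aa, H2-Ab1 and H2-Eb1, the invariant chain Cd74, the peptide exchange chains H2-DMa, H2-DMb1 and H2-DMb2, the inhibitor chains H2-Oa and H2-Ob, and the transactivator Ciita. They were chosen by symbol, as a named gene family, out of 35975 genes in the deposited files, and all 10 were among the 17063 genes that passed the filter on low counts. For each gene, the estimated counts of all its transcripts were summed in each of the 26 colon samples. The samples came from wild-type male C57BL/6J mice, about 10 weeks old at the start, that were fed either a standard diet or a diet with GW3965, a synthetic agonist of the liver X receptor (LXR).

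At days 22, 43 and 70 the mice had received azoxymethane (AOM, 10 mg/kg), a carcinogen, and then up to 3 cycles of 7 days of dextran sodium sulfate (DSS) in the drinking water, which damages the colonic epithelium. Each diet had 3 samples at each of these days. The day 0 groups had 4 samples per diet, from mice that were given neither AOM nor DSS and ate their diet for 22 or 43 days. A day 0 sample titled as GW3965 carries a standard diet label and was placed by its title. It is replicate 43-2 of its group. The summed level of the LXR target genes Srebf1, Abcg1 and Abca1 in it was 723 CPM, within the 712 to 757 CPM of its group and above the 134 to 170 CPM of the standard diet at day 0. Cage labels put all mice of a diet at days 22 and 43 together in 1 cage, its day 0 mice in another, and every day 70 sample in a separate one. At days 0, 22 and 43 diet and cage cannot be told apart, and within a diet cage cannot be told apart from AOM and DSS where day 22 or 43 is compared with day 0. Day 70 samples also came from other cages than day 0, and no day 0 sample had 70 days of diet. Cage and time on the diet can thus not be told apart from AOM and DSS there either.

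Sequencing depth was 18195345 to 41522204 counts per sample, and the median was 20424701. Standard diet day 43 replicate 1 was the most deeply sequenced and had an RNA integrity number of 2.6. Ribosomal protein genes took 3.96% to 18.6% of the counts, most at day 43, and entered the fits as a term. The day 70 libraries held markers of other tissues. The summed level of 4 stratified epithelium genes was 1332 to 1592 CPM (counts scaled to library size) on the standard diet and 5979, 2.80 and 7727 CPM in GW3965 replicates 1, 2 and 3, against at most 3.16 CPM at day 0, and at day 43 it was 121 to 824 and 84.4 to 1842 CPM on the respective diets. Skeletal muscle genes reached 15060 CPM in GW3965 day 70 replicate 1. The part of these tissues in the results was not tested. Of 5 colon markers, 1 was called higher and 2 lower on the standard diet between days 0 and 70. Of all genes, 18.1% were called higher and 15.1% lower. Muc2, the major secreted mucin, went from 89.3 ± 13.5 CPM (SD, n = 4) to 219 ± 82.9 CPM (n = 3), while Car1, a carbonic anhydrase of colonocytes, went from 962 ± 478 to 72.7 ± 41.6 CPM and Slc26a3, their chloride exchanger, from 644 ± 242 to 16.4 ± 3.13 CPM. The summed level of the 5 was 1312 to 3079 CPM at day 0 and 507 to 1472 CPM at day 70.

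MHC class II molecules carry peptides from the endosomes of antigen-presenting cells, mainly B cells, dendritic cells and macrophages, to the cell surface, where CD4+ T cells read them. The invariant chain fills the peptide groove until it is cut down to a fragment, H2-DM exchanges that fragment for other peptides, and H2-O, a close relative of H2-DM found mainly in B cells, holds H2-DM in check. CIITA switches these genes on by docking to a complex on their promoters, and interferon gamma can induce it in cells such as the intestinal epithelium that otherwise make little class II.

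The promoters below are shown as a description, and their part in the levels of the genes was not tested. The class II promoter holds an X box, bound by the RFX complex, and downstream of it a Y box with the core CCAAT, bound by NF-Y. The sequences are RefSeq reference sequence of the GRCm38.p6 build, 5′ to 3′ on the strand of the gene, from the 150 bases before each annotated start without bases in a member's own exon. Capitals mark ATTGG or CCAAT (the Y box core in either direction) and ACNGATG, the last letters of a typical X box with N for any base. H2-Aa and H2-Eb1 stand for the class II chains, H2-DMb2 and H2-Ob for the second pattern.
H2-Aa, chr17:34287824-34287973, minus strand: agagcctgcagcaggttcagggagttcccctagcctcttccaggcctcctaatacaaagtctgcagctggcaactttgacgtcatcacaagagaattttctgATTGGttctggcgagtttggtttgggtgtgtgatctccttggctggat
H2-Eb1, chr17:34305717-34305866, plus strand: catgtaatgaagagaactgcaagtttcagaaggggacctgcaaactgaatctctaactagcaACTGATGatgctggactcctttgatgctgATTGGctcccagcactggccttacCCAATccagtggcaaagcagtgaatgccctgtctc
H2-DMb2, chr17:34145099-34145235, plus strand: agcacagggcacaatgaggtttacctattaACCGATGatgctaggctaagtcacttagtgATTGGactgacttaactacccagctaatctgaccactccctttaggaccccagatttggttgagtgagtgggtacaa
H2-Ob, chr17:34238755-34238902, plus strand: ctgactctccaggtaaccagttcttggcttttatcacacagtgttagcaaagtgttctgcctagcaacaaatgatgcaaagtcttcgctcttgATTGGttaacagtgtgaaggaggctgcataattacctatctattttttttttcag

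Of the 10 genes, 7 had a promoter in the RefSeq table, and 6 of these held CCAAT in either direction within 150 bases of the start. The same core stood in 24.5% of the 32851 promoters of the table in windows of the same length. ACNGATG or its reverse complement CATCNGT stood in 4 of the 7 and in 4.92% of all promoters, and both motifs stood together in 1.17% of all promoters. ATTGG began 48 bases before the start in H2-Aa, 59 in H2-Eb1, 90 in H2-DMb2 and 57 in H2-Ob, and its first base followed that of ACNGATG by 29 bases in H2-Eb1 and by 30 in both H2-DMb1 and H2-DMb2, but by 94 in H2-Oa. Each promoter shown held the Y box core. ACNGATG stood in those of H2-Eb1 and H2-DMb2 but had no match in those of H2-Aa and H2-Ob. Both matches of H2-DMb1 and the ATTGG of H2-Oa lie within an annotated exon. A match is a description of letters and not a binding site. An exact search also misses stretches that differ by a letter, such as acaaatg upstream of ATTGG in H2-Ob. A promoter without a match can thus still hold an X box.

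Of the 10 genes, 8 lie within the MHC region of chromosome 17 on GRCm38 between H2-Oa (chr17:34092340-34095234) and H2-Eb1 (chr17:34305867-34316674). Ciita lies on chromosome 16 and Cd74 on chromosome 18. Levels between genes were compared in TPM, which scales for transcript length and library size. In standard diet samples at day 0, Cd74 was highest at 569 ± 260 TPM (SD, n = 4), followed by H2-Aa at 265 ± 117 TPM, H2-Ab1 at 251 ± 101 TPM and H2-Eb1 at 233 ± 103 TPM. Each of these neighbours in the order overlapped the next. A gap then separated the chains from the accessory genes, of which H2-DMa was highest at 26.1 ± 10.3 TPM and Ciita lowest at 4.003 ± 1.72 TPM, with overlap between every pair of neighbours. The gap below H2-Eb1 stood in all 8 groups. Among close neighbours the order varied between groups: H2-Ab1 was above H2-Aa in 4 of the 8 groups, and H2-DMb1 above H2-DMa in 2. In standard diet samples at day 70, H2-DMb2 (1.37 ± 0.699 TPM, n = 3), H2-Ob (0.964 ± 0.187 TPM) and H2-Oa (0.441 ± 0.176 TPM) lay below Ciita (3.23 ± 1.84 TPM), without overlap between Ciita and H2-DMb2 or between H2-Ob and H2-Oa.

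**Figure D1:**
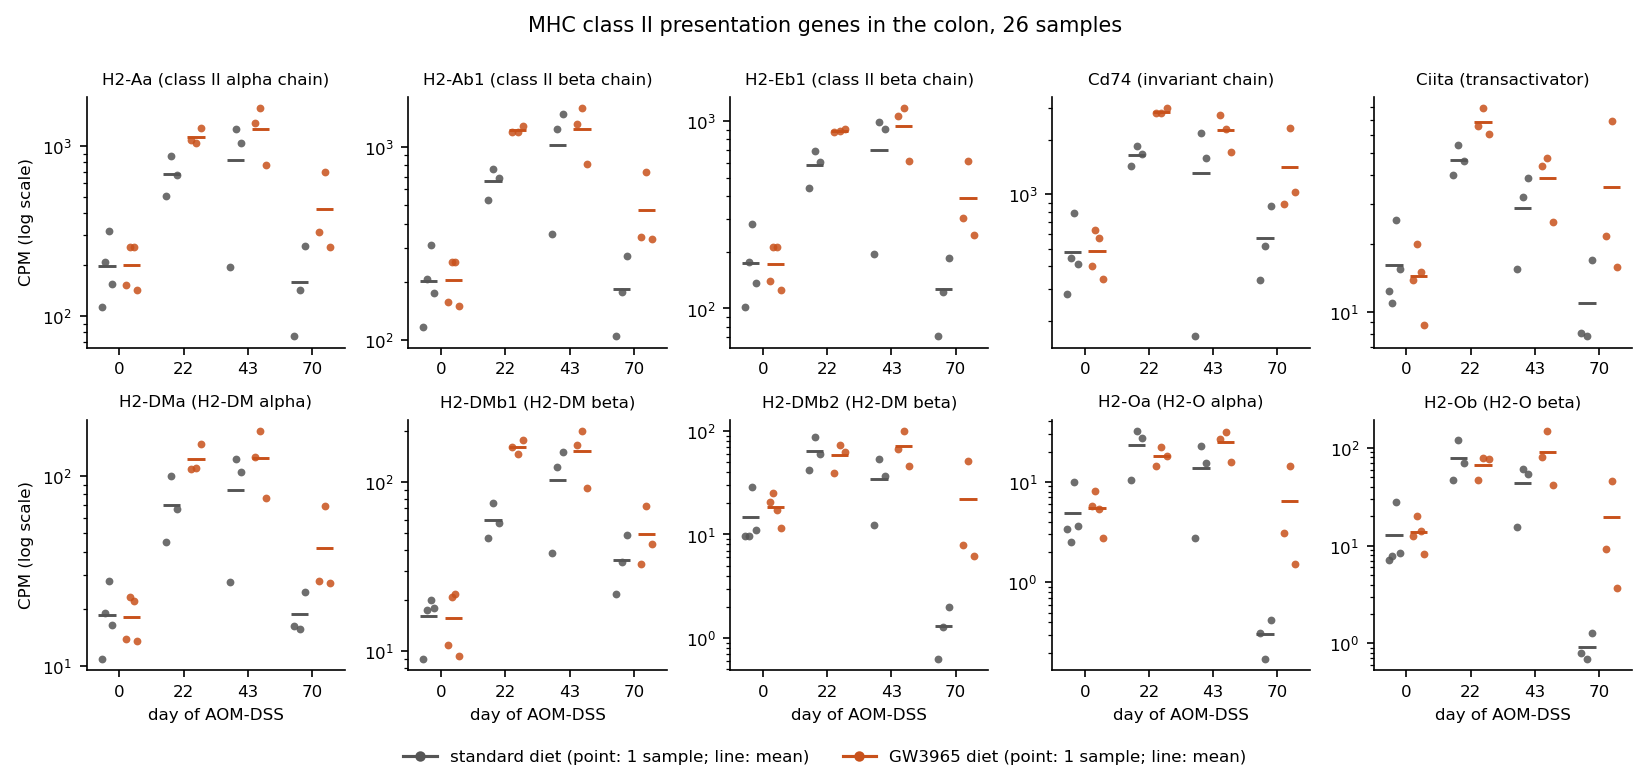
Level of each gene in CPM on a log scale against the day of AOM–DSS, with 1 point per sample, a line at the group mean, grey for the standard diet and orange for the GW3965 diet. H2-DMb2, H2-Oa and H2-Ob at day 70 on the standard diet lie under 2 CPM, below every other sample of these genes.

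At day 22, after the first DSS cycle, the machinery was higher than at day 0 on both diets. With the standard diet, 5 of the 10 genes rose against a background of 6.19% of all genes called higher: H2-Ab1, H2-Eb1, H2-DMa, H2-DMb1 and H2-Ob. The median log2 fold change of the 10 genes was 1.70, with a range of 1.44 to 2.37, while that of all genes was -0.0011. With GW3965, 7 of 10 rose (background 9.13%), with a median of 2.22 against 0.020 over all genes. These 7 were the class II chains, Cd74, Ciita, H2-DMa and H2-DMb1.

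H2-Ab1, a beta chain of the class II molecule, was at 117, 207, 310 and 174 CPM on the standard diet at day 0 and at 528, 770 and 684 CPM at day 22. With GW3965 it was at 157, 252, 254 and 150 CPM at day 0 and at 1192, 1184 and 1271 CPM at day 22. Every day 22 sample lay above every day 0 sample of its diet. The log2 fold change of H2-Ab1 was 1.54 ± 0.413 (SE) on the standard diet and 2.35 ± 0.426 on the GW3965 diet, with adjusted p of 0.0256 and 0.00139 in edgeR's quasi-likelihood test, which was used for all comparisons here with Benjamini-Hochberg adjustment over all genes and a threshold of 0.05. Cd74 had a log2 fold change of 2.47 ± 0.575 on the GW3965 diet (adjusted p = 0.00761) and of 1.73 ± 0.552 on the standard diet (adjusted p = 0.0607).

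H2-DMb1, a beta chain of the peptide exchange molecule, had the largest log2 fold change of the 10 genes on the GW3965 diet at day 22, at 3.09 ± 0.421 (8.51-fold, adjusted p = 0.000141). It was at 10.96, 20.9, 21.9 and 9.45 CPM at day 0 and at 162, 146 and 177 CPM at day 22. The lowest day 22 sample of H2-DMb1 was thus several-fold above the highest day 0 sample. H2-DMb1 on the standard diet rose by 1.68 ± 0.405 (adjusted p = 0.0143), from 9.04, 17.7, 20.2 and 17.9 CPM to 46.7, 75.3 and 57.4 CPM. Its neighbour H2-DMb2 and the inhibitor chain genes H2-Oa and H2-Ob were higher at day 22 as well, with log2 fold changes of 1.95, 2.17 and 2.37 on the standard diet and 1.45, 1.62 and 1.96 on the GW3965 diet, of which only the 2.37 of H2-Ob passed the threshold.

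The day 22 calls of the standard diet turned on single libraries: the count of called genes was 0 without replicate 2 or 3 of day 22 or without replicate 22-1 of day 0, 1 without replicate 43-2, 3 without replicate 22-2 and 10 without replicate 43-1 of day 0. With GW3965 the count stayed at 7 whichever replicate was left out, the sample with the conflicting diet label included. The share of all genes called in these fits is not given here. Pan-leukocyte markers rose beside the machinery, 4 of 4 on both diets (background 6.19% on the standard and 9.13% on the GW3965 diet). Their summed levels were 110 to 292 CPM at day 0 and 507 to 867 CPM at day 22 on the standard diet. The B cell markers were not called at day 22 on either diet (0 of 8, median log2 fold changes 2.00 and 1.66). Their summed level was still above day 0 in every day 22 sample of each diet. On the standard diet it was 320.6 to 606.5 CPM against 43.1 to 233 CPM. With GW3965 it was 270.4 to 499.4 CPM against 69.8 to 165 CPM. Of 9 dendritic cell markers, 4 were called higher on the standard diet and 3 with GW3965. The counts were 2 and 3 of 8 macrophage markers and 3 and 6 of 6 T cell markers. The part of these cells in the rise was not tested. In bulk samples, more cells of a type and more RNA per cell cannot be told apart.

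At day 43 the calls depended on the ribosomal term. The median log2 fold change against day 0 was 1.02 on the standard diet and 1.76 on the GW3965 diet. Mean CPM was lower at day 43 than at day 22 for H2-DMb2, H2-Oa, H2-Ob, Cd74 and Ciita on the standard diet and for H2-DMb1, Cd74 and Ciita on the GW3965 diet, and higher for the other genes, whereas mean TPM was lower at day 43 for all 10 genes on both diets. These days were not tested against each other. H2-Aa, the alpha chain, was at 194, 1257 and 1034 CPM on the standard diet and at 1359, 1657 and 769 CPM on the GW3965 diet. Standard diet replicate 1, the library of integrity number 2.6, lay inside the day 0 range of 113 to 313 CPM, and the other 5 samples lay above it. None of the 10 genes was called against day 0 on the standard diet by edgeR's quasi-likelihood test (background of genes called higher 0%) or by DESeq2. Of the 10, 0 had an unadjusted p under 0.05, against 1369 of all 17063 genes. With GW3965, 0 were called by edgeR (background 0.897%) and 1 by DESeq2, and 6 had an unadjusted p under 0.05, against 2324 of all 17063 genes. Without the ribosomal term, edgeR called 7 and 10 of the 10 genes. The backgrounds above come from the fit with that term and do not apply to these counts. Ribosomal protein genes took 16.5% ± 2.10 (SD, n = 3) of counts on the standard diet at day 43 and 5.77% ± 0.528 (n = 4) at day 0, so this percentage moved with the day.

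At day 70, when tumours are present in this model, the 10 genes did not all move alike. On the standard diet against day 0, H2-DMb2, H2-Oa and H2-Ob fell (3 of 10, background of genes called lower 15.1%) and H2-DMb1 rose (1 of 10, background of genes called higher 18.1%). By count, 1 of 10 called higher is below the share of all genes. H2-Aa, H2-Ab1, H2-Eb1, Cd74, H2-DMa and Ciita had log2 fold changes between -0.57 and 0.24 and were not called. The median over the 10 genes was -0.42, against 0.035 over all genes.

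H2-Ob, the beta chain of the inhibitor, was at 7.16, 7.89, 27.9 and 8.42 CPM at day 0 and at 0.789, 0.697 and 1.27 CPM at day 70. Its log2 fold change was -3.79 ± 0.804 (SE, adjusted p = 0.00163). H2-Oa, the alpha chain of the same molecule, was at 3.39, 2.55, 9.87 and 3.62 CPM at day 0 and at 0.315, 0.174 and 0.423 CPM at day 70. The groups of both genes were far apart, but the day 70 values rest on 4 to 10 counts of H2-Oa and on 15 to 30 counts of H2-Ob per sample. The log2 fold change of H2-Oa was -3.97 ± 0.877 (adjusted p = 0.00215). H2-DMb2 went from 9.70, 9.59, 29.1 and 11.1 CPM to 0.631, 1.26 and 1.99 CPM, a log2 fold change of -3.52 ± 0.738 (adjusted p = 0.0015). Each of these 3 genes was called lower in all 15 alternative settings and left-out libraries.

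H2-DMb1 went the other way, from 9.04, 17.7, 20.2 and 17.9 CPM at day 0 to 22.0, 33.7 and 48.7 CPM at day 70 (log2 fold change 1.06 ± 0.391, adjusted p = 0.0417). All day 70 samples lay above all day 0 samples. This call held in 7 of 15 alternatives, with adjusted p from 0.0125 to 0.189. The chains did not move with it: H2-Ab1 had a log2 fold change of -0.17 ± 0.404 and H2-DMa, the alpha chain that pairs with both beta chains of H2-DM, of 0.0084 ± 0.423.

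Against day 22, 8 of 10 genes fell on the standard diet by day 70 (background 16.3%), with a median log2 fold change of -1.99 against -0.021 over all genes. The log2 fold changes were -6.16 for H2-Ob, -6.15 for H2-Oa and -5.47 for H2-DMb2, and between -2.09 and -1.71 for H2-Aa, H2-Ab1, H2-Eb1, H2-DMa and Ciita. Cd74 (-1.48 ± 0.595, adjusted p = 0.0616) and H2-DMb1 (-0.62 ± 0.427, adjusted p = 0.277) were not called. Leukocyte markers fell in the same comparison: 8 of 8 B cell, 9 of 9 dendritic cell, 7 of 8 macrophage, 6 of 6 T cell and 4 of 4 pan-leukocyte markers were called lower, and their part in the result was not tested. With GW3965, 0 of 10 were called lower between these days by edgeR (background 1.6%) or by DESeq2, and the median was -1.02. Of the 10, 2 had an unadjusted p under 0.05, against 3615 of all 17063 genes. Without GW3965 day 70 replicate 2, 6 of 10 were called lower, and the share of all genes called in that fit is not given here.

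On the GW3965 diet at day 70, 6 of 10 genes were higher than at day 0 (background 14.4%): H2-Ab1, H2-Eb1, Cd74, H2-DMa, H2-DMb1 and Ciita. H2-DMb1 had a log2 fold change of 1.85 ± 0.407 (adjusted p = 0.0033), called in all 15 alternatives, and H2-Ab1 one of 1.41 ± 0.417 (adjusted p = 0.0206), called in 12. H2-DMb2, H2-Oa and H2-Ob had log2 fold changes of 0.39, 0.30 and 0.81, none called. Only 1 of the 10 was called without GW3965 day 70 replicate 2, without day 0 replicate 22-1 or without day 0 replicate 43-2, the sample with the conflicting label, and 3 without day 0 replicate 43-1.

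**Figure D2:**
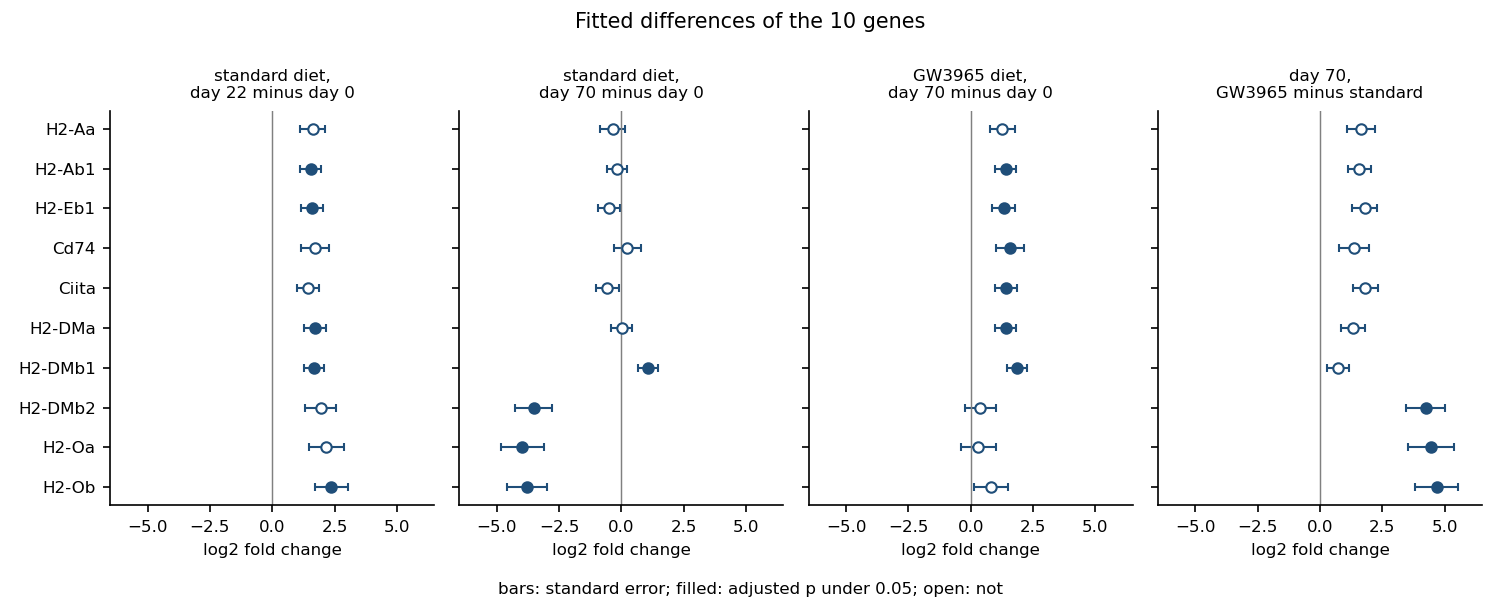
Fitted log2 fold change of each gene (x axis) in 4 comparisons, with bars of 1 standard error and filled points where the adjusted p was under 0.05. On the standard diet between days 0 and 70, H2-DMb2, H2-Oa and H2-Ob stand at -3.52 to -3.97 while the other 7 genes lie between -0.57 and 1.06, and the same 3 genes have the largest differences between the diets at day 70.

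Between the diets at day 70, all 10 genes were fitted higher on GW3965, by a median log2 fold change of 1.71 (range 0.73 to 4.69) against 0.017 over all genes. H2-Ob, H2-DMb2 and H2-Oa were called higher (3 of 10, background 1.75%). In CPM, every GW3965 sample lay above every standard diet sample for 7 of the 10 genes, as it did for 10.5% of all genes.

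H2-Ob was at 9.16, 45.9 and 3.67 CPM in GW3965 replicates 1, 2 and 3, against 0.789, 0.697 and 1.27 CPM on the standard diet. H2-Oa was at 3.12, 14.5 and 1.52 CPM against 0.315, 0.174 and 0.423 CPM. H2-DMb2 was at 7.83, 51.5 and 6.22 CPM against 0.631, 1.26 and 1.99 CPM. The groups did not overlap for any of the 3 genes, and GW3965 replicate 2 was several-fold above the other 2 samples of its group. The log2 fold changes were 4.69 ± 0.863 for H2-Ob (adjusted p = 0.0182), 4.45 ± 0.925 for H2-Oa (adjusted p = 0.0252) and 4.24 ± 0.794 for H2-DMb2 (adjusted p = 0.0182). Without GW3965 replicate 2 they were 3.06, 3.00 and 2.59, and all 3 were still called.

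None of the 3 was called when any one of the standard diet day 70 replicates was left out, when the day 70 samples were fitted alone (adjusted p = 0.409 for each gene, edgeR's quasi-likelihood test) or with a replicate block. Without GW3965 replicate 3, 8 of 10 genes were called, and the share of all genes called in that fit is not given here.

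The chains and Ciita were not called between the diets at day 70. Ciita was at 21.6, 69.3 and 15.8 CPM on GW3965 and at 8.10, 7.84 and 16.9 CPM on the standard diet (log2 fold change 1.82 ± 0.502, adjusted p = 0.062). H2-Eb1 was at 304, 613 and 246 CPM against 71.1, 123 and 185 CPM (1.79 ± 0.508, adjusted p = 0.0686). Ciita overlapped between the diets and H2-Eb1 did not. H2-Ab1 had a log2 fold change of 1.57 ± 0.457 (adjusted p = 0.0741), H2-Aa of 1.63 ± 0.567 (adjusted p = 0.128), Cd74 of 1.36 ± 0.607 (adjusted p = 0.233), H2-DMa of 1.33 ± 0.472 (adjusted p = 0.135) and H2-DMb1 of 0.73 ± 0.435 (adjusted p = 0.378). DESeq2 called 7 of the 10, and the background given for edgeR does not apply to it.

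B cell markers moved with H2-DMb2, H2-Oa and H2-Ob. All 8 of the list (Ms4a1, Cd79a, Cd79b, Pax5, Cr2, Fcer2a, Blk and Cd22) were called higher on GW3965 at day 70 (background 1.75%), with a median log2 fold change of 4.37. All 8 were called lower on the standard diet between days 0 and 70 (background 15.1%), with a median of -3.57. In the latter comparison 4 of 9 dendritic cell markers (median -1.17), 3 of 8 macrophage markers (Mertk, Cx3cr1 and Adgre1, list median -0.76), 1 of 6 T cell markers and 0 of 4 pan-leukocyte markers were also called lower. The summed level of the B cell markers on the standard diet was 43.1 to 233 CPM at day 0 and 5.47 to 12.5 CPM at day 70, where Pax5 and Cr2 were each at 0 in some sample. In GW3965 replicates 1, 2 and 3 at day 70 the sum was 61.4, 412 and 23.2 CPM, the same order of samples as for the 3 genes. Of the other lists, 3 of 9 dendritic cell markers, 2 of 6 T cell markers, 1 of 4 pan-leukocyte markers and 0 of 8 macrophage markers were called higher on GW3965 at day 70. The part of these cells in the result was not tested.

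**Figure D3:**
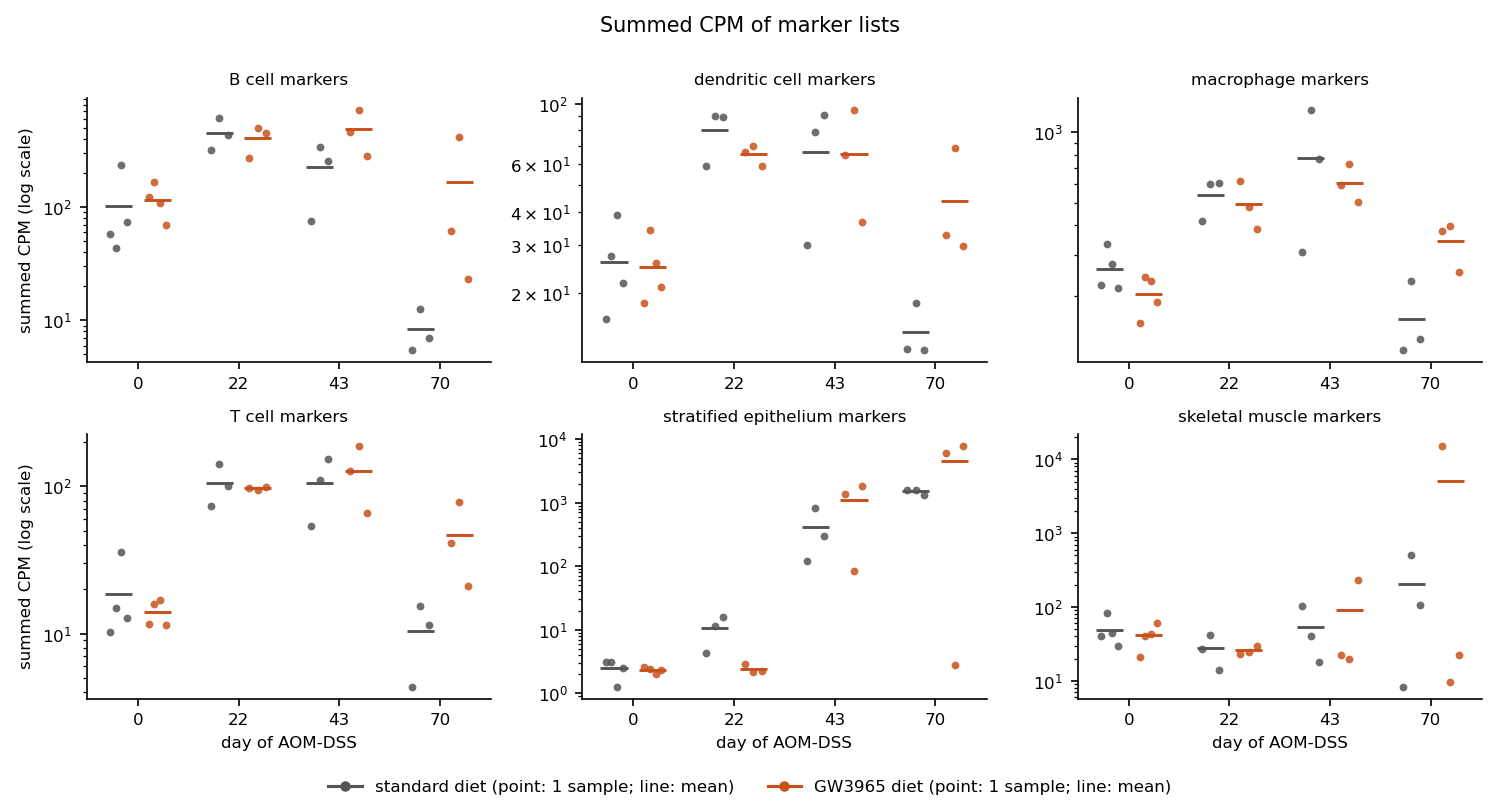
Summed CPM of 6 marker lists on a log scale against the day of AOM–DSS, with 1 point per sample and a line at the group mean. The B cell sum on the standard diet falls to between 5.47 and 12.5 CPM at day 70, GW3965 day 70 replicate 2 has the highest sums of that day in the B cell list (412 CPM) and only 2.80 CPM of stratified epithelium genes, and replicate 1 holds 15060 CPM of skeletal muscle genes.

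At the earlier days no gene of the 10 was called between the diets. At day 0 the median log2 fold change was 0.0024 (0 of 10 called, background 0.0293%, none with an unadjusted p under 0.05), at day 22 it was 0.59 (0 of 10, background 0.135%, 1 under 0.05) and at day 43 it was 0.85 (0 of 10, background 0.0293%, none under 0.05). Of all 17063 genes, 331, 1700 and 1476 had an unadjusted p under 0.05 at these days. DESeq2 called 0 at each of these days. H2-DMb1 was the gene with an unadjusted p under 0.05 at day 22, at 162, 146 and 177 CPM on GW3965 against 46.7, 75.3 and 57.4 CPM (log2 fold change 1.35 ± 0.425, adjusted p = 0.225), and was called where the day 22 samples were fitted alone. For 7 of the 10 genes every GW3965 sample of day 22 lay above every standard diet sample, as it did for 12.1% of all genes. The other 3 were H2-DMb2, H2-Oa and H2-Ob, whose log2 fold changes were -0.18, -0.37 and -0.32.

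Whether the diet effect differed between days was tested directly. No gene of the 10 had a diet effect at day 22, 43 or 70 that differed from that at day 0 after adjustment in edgeR's quasi-likelihood test (background 0.0234%, 0% and 0% of all genes). For day 70 minus day 0, 8 of the 10 had an unadjusted p under 0.05, against 2169 of all 17063 genes. H2-Ob had a difference of 4.60 ± 1.03 on the log2 scale (adjusted p = 0.145). DESeq2 called 3 of the 10, and the background above does not apply to it. The joint test of diet over all days, the likelihood ratio test of a model in which the ribosomal percentage interacts with diet and time, called 0 of the 10 genes and 0.932% of all genes. With that percentage added without interactions, it called H2-DMb2, H2-Oa and H2-Ob, and 587 of all 17063 genes. With it left out, the same members and 902 of all genes were called.

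The contrast between the H2-DM beta chains was also seen within each sample. H2-DMb2 made up 50.8%, 34.0%, 56.2% and 35.4% of the summed TPM of H2-DMb1 and H2-DMb2 on the standard diet at day 0. At day 70 it made up 2.81%, 3.51% and 3.86%. With GW3965 at day 70 the share was 18.5%, 39.9% and 12.3%. All 3 GW3965 samples thus lay above the standard diet samples of day 70 and below the GW3965 samples of day 0 (43.7% to 63.5%). At day 22 the share was 48.7% ± 3.12 (SD, n = 3) on the standard diet and 25.2% ± 6.60 on the GW3965 diet, without overlap, with H2-DMb1 higher on GW3965 and H2-DMb2 at 42.1, 87.7 and 60.5 CPM against 38.9, 73.7 and 62.5 CPM. The 2 genes share sequence: their main transcripts are 89.0% identical over 1269 aligned bases and share 517 stretches of 31 bases, 37.6% and 37.1% of each, so reads in these stretches were divided between them by the estimation and their separate levels are uncertain to that extent.

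The ratio of H2-Ob to H2-DMa, the inhibitor against the exchange molecule, was 39.7 ± 12.2 TPM of H2-Ob per 100 TPM of H2-DMa (SD, n = 4) at day 0 of the standard diet, 70.2 ± 8.77 (n = 3) at day 22, 31.4 ± 2.69 at day 43 and 3.74 ± 1.33 at day 70. With GW3965 it was 41.6 ± 8.62 (n = 4), 38.3 ± 11.5 (n = 3), 45.6 ± 7.65 and 22.9 ± 17.96. The standard diet samples lay above the GW3965 samples at day 22 and below them at days 43 and 70. For H2-Oa, the other inhibitor chain, the order was the same at days 22 and 70, but the diets overlapped at day 43. There H2-Oa was at 10.17 to 18.98 TPM per 100 TPM of H2-DMa on the standard diet and at 18.36 to 21.95 on GW3965. Coding transcripts held only 41.7% of H2-Ob TPM on average. H2-DMa against H2-Ab1 kept between 7.96 and 16.6 TPM per 100 TPM in the 26 samples, with group means from 8.90 to 12.4. Cd74 was at 225 ± 16.4 TPM per 100 TPM of H2-Ab1 on the standard diet at day 0 (n = 4) and at 299 ± 17.6 at day 70 (n = 3), without overlap. With GW3965 it was at 231 ± 15.3 at day 0 (n = 4) and at 281 ± 28.3 at day 70 (n = 3), also without overlap. Standard diet day 43 ranged from 41.3 to 167, with the library of integrity number 2.6 lowest. These ratios are descriptions without a test.

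**Figure D4:**
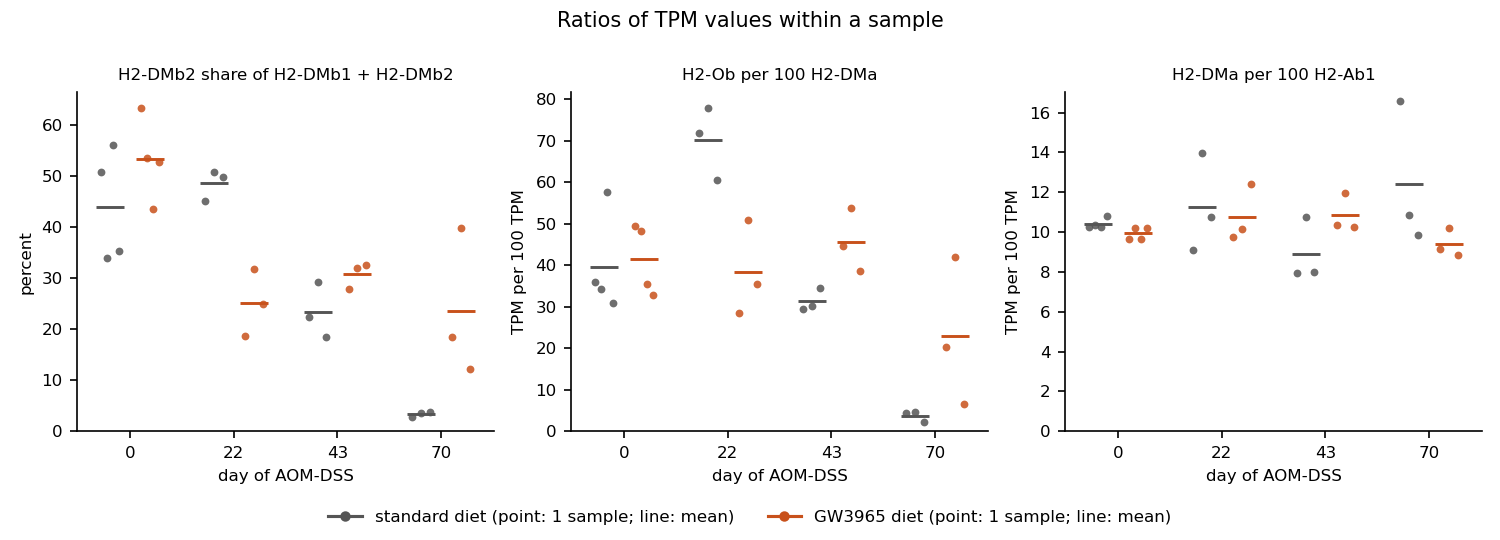
Ratios of TPM within a sample against the day of AOM–DSS, in percent for the H2-DMb2 share and in TPM per 100 TPM for the others, with 1 point per sample and a line at the group mean. The H2-DMb2 share on the standard diet drops from a mean of 44.1% at day 0 to 3.39% at day 70, H2-Ob per 100 H2-DMa drops from 39.7 to 3.74, and H2-DMa per 100 H2-Ab1 has group means between 8.90 and 12.4.

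Over the 26 samples the log2 CPM of H2-DMb2, H2-Oa and H2-Ob had Pearson correlations of 0.985 to 0.987 with each other, and the class II chains and H2-DMa had correlations of 0.977 to 0.996. H2-DMb1 correlated at 0.955 with H2-DMa and at 0.571 with H2-DMb2. These are descriptions over samples that share their groups. The genes outside the 10 whose log2 CPM was most like the mean of the 10 were Slamf8 (r = 0.974), Rhoh (0.973), Gimap4 (0.972), Acap1 (0.968), Sp140 (0.968), Sept1 (0.967), Slamf6 (0.967) and Kmo (0.967), over the same 26 samples.

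Cd74 is made in a shorter form, which a transcript with 645 coding bases matches, and a longer form (p41) with an added exon that encodes an inhibitor of cathepsins, which Cd74-202 with 837 coding bases matches. Cd74-202 held 17.5% ± 2.58 of Cd74 TPM on the standard diet at day 0 (SD, n = 4) and 13.6% ± 1.51, 10.8% ± 2.36 and 12.2% ± 0.913 at days 22, 43 and 70 (n = 3 each). With GW3965 it held 14.8% ± 0.501 (n = 4), 10.7% ± 1.21, 9.90% ± 0.357 and 12.4% ± 1.26. The 3 GW3965 samples of each of days 22, 43 and 70 lay below the GW3965 samples of day 0, which ranged from 14.1% to 15.2%, and the diets overlapped at days 0, 43 and 70 but not at day 22, where the GW3965 samples were lower.

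For H2-Eb1 and H2-Ob much of the signal lay on transcripts that the annotation does not call protein coding. Protein-coding transcripts held a mean of 25.1% of H2-Eb1 TPM over the 26 samples (13.1% to 31.7%), and a transcript annotated for nonsense-mediated decay held 44.5% ± 11.4. For H2-Ob the coding share was 41.7% on average (4.53% to 76.2%), and the retained-intron transcripts H2-Ob-207 and H2-Ob-204 held 30.1% ± 8.95 and 21.8% ± 13.4. The widest range of H2-Ob shares fell in the standard diet samples of day 70, which had 15 to 30 counts. For the other 8 genes coding transcripts held 93.6% or more on average. The Ciita transcript with 3234 coding bases held 67.9% ± 9.39 of Ciita TPM (SD over the 26 samples).

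**Figure D5:**
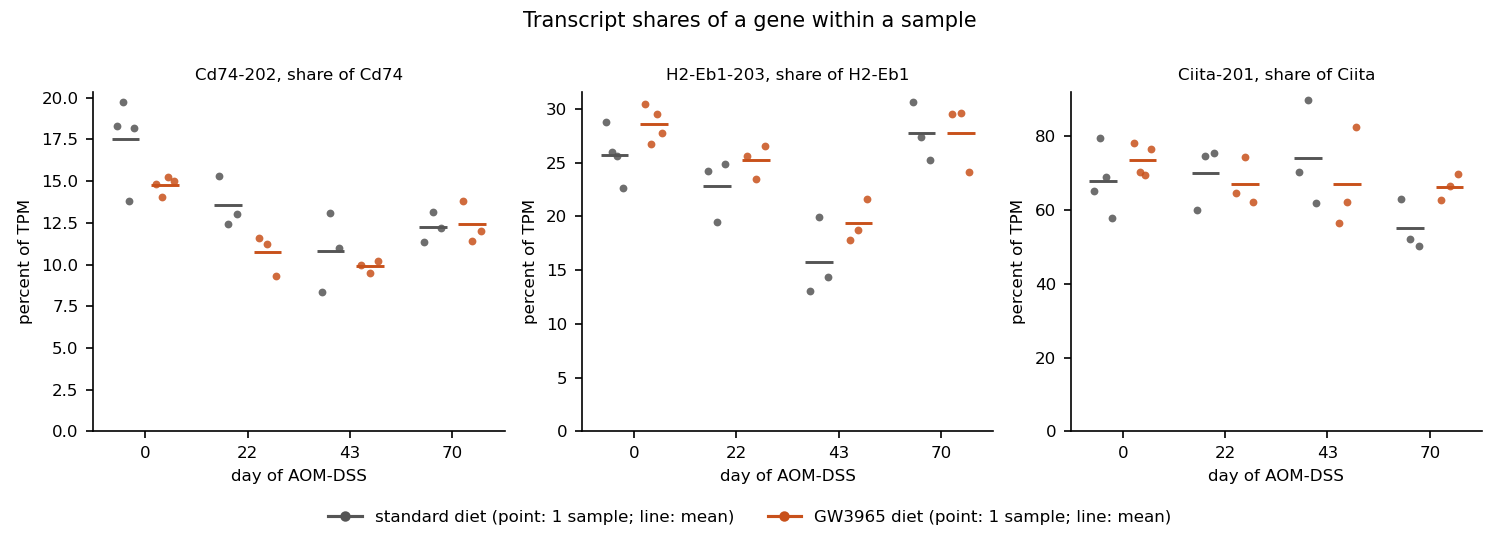
Share of a gene's TPM on the longer Cd74 transcript (Cd74-202), the main coding H2-Eb1 transcript (H2-Eb1-203) and the main Ciita transcript against the day of AOM–DSS, in percent, with 1 point per sample and a line at the group mean. Cd74-202 has its highest group mean, 17.5%, on the standard diet at day 0, and H2-Eb1-203 its lowest, 15.8%, on the standard diet at day 43.

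Of 7 genes for the factors that hold CIITA on the promoters (Rfx5, Rfxank, Rfxap, Nfya, Nfyb, Nfyc and Creb1), 0 were called between the diets at day 70, with a median log2 fold change of -0.13, and 0 on either diet at day 22 against day 0. Among standard diet samples between days 0 and 70, 1 of the 7 was called higher and 1 lower, against 18.1% and 15.1% of all genes. Rfxank, a subunit of the RFX complex, fell from 24.7 ± 3.52 CPM (SD, n = 4) to 13.5 ± 2.15 CPM (n = 3), and Nfyb, a subunit of NF-Y, rose from 29.3 ± 1.65 to 48.8 ± 3.45 CPM. Rfxank also fell on the GW3965 diet, from 26.8 ± 1.75 to 13.5 ± 1.39 CPM.

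Of the endosomal proteases Ctss, Ctsl and Lgmn, which cut antigen and the invariant chain, 0 of 3 were called between the diets at day 70. Lgmn was called higher at day 22 on both diets, at 174 ± 38.4 CPM against 75.6 ± 15.1 CPM on the standard diet. March1, a ligase that marks surface class II for turnover, rose at day 22 on both diets (log2 fold changes 1.67 and 2.05) and fell on the standard diet between days 22 and 70 by 2.49 on the log2 scale. Of 4 co-stimulatory ligands, Cd86, Cd80 and Cd40 rose at day 22 on the standard diet (background 6.19%) and the same 3 on the GW3965 diet (background 9.13%). Between the diets at day 70, 0 were called.

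Interferon gamma response genes were called in different numbers on the diets at day 22, although the difference between the diets was not called for any of them. On the GW3965 diet 9 of 9 rose at day 22 (background 9.13%), with a median log2 fold change of 3.56. On the standard diet 1 of 9 rose (background 6.19%), with a median of 1.58. That gene was Cxcl9, a chemokine that draws T cells, at 38.3 ± 14.8 CPM (SD, n = 3) on the standard diet and 235 ± 55.5 CPM on the GW3965 diet. Ifng itself rose at day 22 on the GW3965 diet from 0.171 ± 0.156 CPM (n = 4) to 8.24 ± 5.44 CPM (n = 3). The difference between the diets was called for 0 of 9 response genes at day 22 and 0 of 9 at day 70 (median 1.42).

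The MHC class I presentation genes were called in 8 of 10 cases at day 22 on the standard diet and 10 of 10 on the GW3965 diet, with medians of 1.34 and 1.92. Of all genes, 6.19% and 9.13% were called higher. Nlrc5, the class I counterpart of Ciita, rose by 2.60 on the standard diet and by 3.43 on the GW3965 diet on the log2 scale. At day 70 against day 0, 3 of 10 class I genes (Tap1, Nlrc5 and H2-D1) rose on the standard diet, against 18.1% of all genes, and 8 of 10 on the GW3965 diet, against 14.4%, and 0 of 10 were called between the diets (median 0.83).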

How the data were processed

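RNA from 26 mouse colon samples was sequenced as paired-end reads of 150 bases. The authors quantified transcripts with kallisto on the GRCm38 transcriptome and deposited estimated counts (expected counts, which need not be whole) and TPM per transcript. The kallisto version and the Ensembl release are not given in the sources used here, nor is the use of strand, so overlapping antisense transcripts cannot be told apart. Of 119414 transcripts, 116728 had an identifier in the GRCm38 GENCODE annotation, and 0.615% to 0.999% of counts per sample were unmatched. Estimated counts were summed by gene and rounded. No 2 samples held identical values. The labels do not say that samples of a group are separate animals. The study describes its bulk RNA-seq both by the number of mice per time point and, in its reporting form, as pools of a few biological replicates sequenced as a single sample, so whether a sample is 1 mouse or a pool is unclear. P-values measure the spread between these samples.

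The 8 groups were fitted together with an additive term for the share of counts, in percent, that 88 ribosomal protein genes took, with filterByExpr, TMM and the quasi-likelihood test of edgeR 4.0.16 in R 4.3.3 (limma 3.58.1), with Benjamini-Hochberg adjustment over 17063 genes and a threshold of 0.05. Fold changes are on the log2 scale of this fit, and CPM used TMM library sizes. DESeq2 1.42.0 was an alternative. Correlations used log2 CPM with a prior count of 2. Tables were made with Python 3.11.15, pandas 2.3.3 and numpy 2.4.6, and figures with matplotlib 3.10.9. The test was checked on simulated counts. Transcripts were described where their mean was at least 1 TPM. In each list, at most 4 called genes were named, by smallest p, in the comparisons in which at least 1 of the 10 genes was called, and the 8 genes of highest correlation with the mean of the 10. The 10 genes and the lists were chosen with earlier results of these data known. Ifi30 was not analysed here. A marker gene of the B cell list is not reported here and was left out of its counts and sums. Marchf1 is listed as March1.

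Alternatives were no ribosomal term, the RNA integrity number in its place, RLE normalization, no filter, DESeq2, the samples of a day alone, a replicate block, each replicate left out, other forms of the joint test, CPM for TPM and estimated counts for transcript shares. Fits without the library of integrity number 2.6 and without the day 43 samples were added after seeing the data.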

Additional observations from a re-analysis of the deposited data

Results flagged for a closer look

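On the standard diet at day 0, replicate 43-1 stood apart from the other 3 samples of its group for 3 of the 10 genes: H2-DMb2 at 29.06 CPM, H2-Oa at 9.872 CPM and H2-Ob at 27.87 CPM. For each gene the gap to the nearest sample, divided by the range of the group, was above Dixon's critical value for 4 samples. Of the 20 combinations of gene and day 0 group tested, 3 passed, where chance gives about 1 in 20, and the 3 genes are not independent. The same library had the highest summed level of B cell markers at day 0, 233 CPM. Groups of 3 samples were not tested.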

How the results depend on the processing

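No called value of a single gene changed direction under any alternative. The background shares come from the main fits and do not apply to the counts of alternatives. Outside the fits that left out a replicate, 249 of the 267 values of single genes that were called stayed called, and 96 others became called. With 1 replicate left out, 161 of 220 stayed called and 21 others became called. The number of the 10 genes called between the diets at day 70 was 3, and it was 5 with the RNA integrity number as the term, 7 with DESeq2, 0 with the day 70 samples alone, 8 without the library of integrity number 2.6 and 0 with the replicate block. The replicate block also took the count on the GW3965 diet at day 70 against day 0 from 6 to 3 and changed no other count by over 1.5 times. Same-numbered samples did not deviate together on average (mean correlation -0.0661 over 13 pairs, from -0.37 to 0.201). Differently numbered samples were not compared, so whether the numbers pair the samples is not settled. At day 22 between the diets the count was 0, and 1 with that day alone. For the standard diet at day 22 against day 0 it was 5, and 10 without the ribosomal term, with the integrity number, with DESeq2 and without the library of integrity number 2.6. At day 43 against day 0 it was 0 on both diets. On the standard diet it became 7 without the ribosomal term and 8 with the integrity number, and on the GW3965 diet 10 with either, 1 with DESeq2 and 1 without the library of integrity number 2.6. For the GW3965 diet at day 70 against day 22 it went from 0 to 3 without the ribosomal term and 6 with the integrity number. The difference of the diet effects of days 70 and 0 went from 0 to 3 with DESeq2. The joint test went from 0 to 3 with the additive term and 3 without the ribosomal term, and stayed at 0 with the quasi-likelihood F-test. These alternatives called, in that order, 587, 902 and 8 of all 17063 genes, against 159 in the main test. The causes were not tested. Leaving out 1 replicate gave counts of 0 to 8 for the diet effect at day 70, 0 to 10 for the standard diet at day 22, 3 to 4 at day 70 against day 0 and 7 to 8 against day 22, 7 throughout for the GW3965 diet at day 22, 1 to 5 at day 70 against day 0 and 0 to 6 against day 22, and 0 to 4 for the difference of diet effects of days 70 and 0, the 4 without GW3965 day 70 replicate 3. By estimated counts in place of TPM, the mean transcript share was 38.75% for H2-Eb1-203 (24.37% by TPM), 82.59% for Ciita-201 (67.86%) and 61.46% for H2-Ob-201 (36.83%). Depth limits H2-DMb2, H2-Oa and H2-Ob on the standard diet at day 70, where they had 4 to 47 counts per sample.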
